A study of Mus musculus with 4 samples.

Results

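The RNA of low-count barcodes was examined in single-nucleus RNA sequencing of mouse forebrain after stroke. A low-count barcode was any barcode with 11 to 500 UMIs in all (UMI, unique molecular identifier, a tag that marks 1 captured RNA molecule), whatever genes those UMIs came from. There were 114874 such barcodes among the 5535745 barcodes with at least 1 UMI, against 8909 deep barcodes, those above 1000 UMIs. The 4 libraries came from male C57Black/6 mice of 3 months: a sham control, and days 1, 3 and 7 after permanent middle cerebral artery occlusion (MCAO), a stroke model made by coagulating and cutting the vessel for good. Each library was made from 3 forebrain hemispheres, frozen, pooled during homogenisation and spun through sucrose, so every group held 1 library, no difference has a replicate check, and no p-value was computed. The surgical notes of the labels name intact cortex as the control tissue, whereas the condition label reads sham control and the design names forebrain hemispheres for every time point.

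In droplet assays most droplets hold no nucleus. They still pick up RNA that floats in the suspension or clings to debris, so their barcodes record a mixture of what the tissue released when it was broken up. In stroke this mixture can draw on dying neurons, blood elements, activated microglia, macrophages that enter the lesion, reactive astrocytes and the vessel wall.

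The doubt about 2 of the labels comes first. The study's own account of how its nuclei divided among time points matches the libraries only with the labels day 3 and day 7 exchanged, whereas its account of reactive microglia runs the way the labels do. Deep barcodes numbered 2226, 1203, 3734 and 1746 in sham control and the libraries labelled day 1, day 3 and day 7. The study's own counts per time point are not given here. Whether the labels or their exchange hold was not tested. The labels as deposited were kept, every value of day 3 or day 7 below belongs to the library so labelled, and the values of day 1 and sham control do not rest on the choice.

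Given in the order sham control, day 1, day 3, day 7, the low-count barcodes numbered 30558, 13754, 42550 and 28012. They held 9204046, 5228457, 15106054 and 8802522 UMIs, or 32.6%, 22.5%, 35.2% and 35.2% of each library's UMIs. Their median totals were 304, 405, 359 and 317 UMIs, so most sat in 1 broad peak rather than near the lower limit. Barcodes of 11 to 100 UMIs numbered only 499 to 710 per library. The limit of 500 UMIs lay beyond the peak in sham control and day 7 but cut through its upper side at day 1 and day 3, where 4137 and 4149 barcodes had over 500 and up to 1000 UMIs, against 269 in sham control and 791 at day 7. Between 37 and 62 low-count barcodes of a library, 0.143% to 0.269%, were above 1000 UMIs in another library, and pairs of libraries shared 138 to 417 low-count barcodes.

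**Figure D1:**
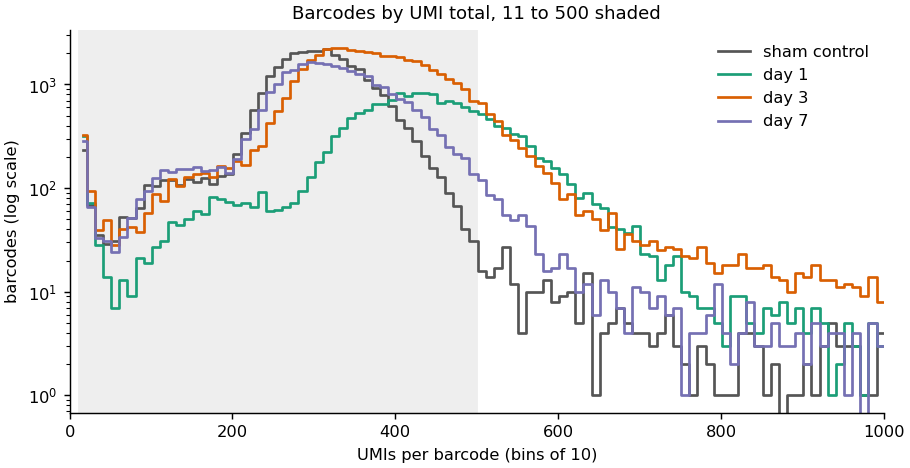
Number of barcodes (log scale) in bins of 10 UMIs per barcode for the 4 libraries, with the range of 11 to 500 UMIs shaded. The peak of low-count barcodes lies near 300 UMIs in sham control and day 7 (medians 304 and 317). It lies higher at day 3 and day 1 (medians 359 and 405), where it runs on past 500 UMIs.

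Classes of transcript with a known place in the cell were used to ask what kind of RNA the low-count barcodes held. Nuclear long noncoding RNAs, transcripts such as Malat1 that are retained in the nucleus, made up 7.14%, 8.59%, 6.90% and 8.33% of low-count UMIs (sham control, then days 1, 3 and 7). The same class made up 7.97%, 9.02%, 7.07% and 9.05% of the UMIs of deep barcodes. Malat1 carried this share, with 6.47%, 7.90%, 6.20% and 7.55% of low-count and 6.62%, 7.62%, 5.79% and 7.69% of deep UMIs. Gene by gene the class was lower in low-count barcodes: the median of its 10 counted members stood at 0.511, 0.463, 0.568 and 0.561 of the deep level, 5, 7, 3 and 3 of the 10 were at or under 0.5, and none was 2-fold above. In barcodes of 1 to 10 UMIs the nuclear class took only 3.51% to 4.14%. No value here separates RNA from outside nuclei from RNA of nuclei, so the low-count barcodes are named by their UMI range only.

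Cytosolic ribosomal protein transcripts, the messengers of the translation machinery and mostly found in the cytoplasm, went the other way. They made up 1.96%, 2.43%, 2.09% and 1.62% of low-count UMIs, against 0.274%, 0.439%, 0.605% and 0.361% in deep barcodes. All 76 counted genes of this class were at least 2-fold higher in low-count than in deep barcodes of each of the 4 libraries. Mitochondrially encoded transcripts made up 0.741%, 2.11%, 1.26% and 1.45% of low-count UMIs and 0.678%, 1.40%, 1.86% and 1.29% of deep UMIs. Day 1 was thus highest in low-count barcodes and day 3 in deep barcodes. In barcodes of 1 to 10 UMIs the mitochondrial shares were 1.12%, 2.40%, 2.73% and 2.31%, so day 3 was highest there too. The exact binomial 95% intervals of these shares were narrow (for low-count barcodes of day 1, 2.10% to 2.12% mitochondrial UMIs), and like every interval here they cover counting error only.

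**Figure D2:**
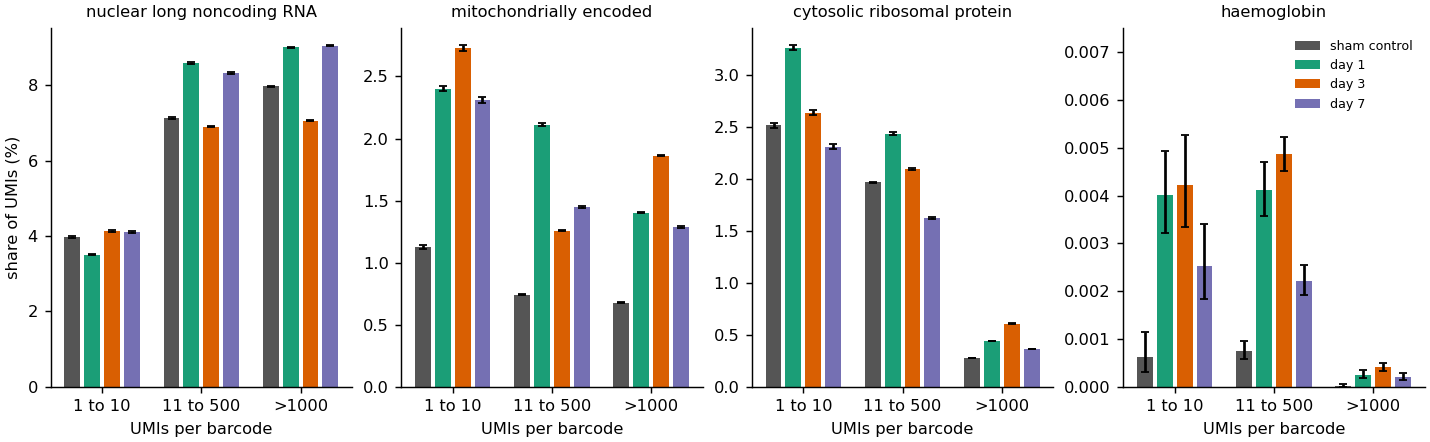
Share of UMIs (percent, bars from 0, a scale per panel) in nuclear long noncoding, mitochondrially encoded, cytosolic ribosomal protein and haemoglobin transcripts, for barcodes of 1 to 10, 11 to 500 and above 1000 UMIs in the 4 libraries, with exact 95% binomial intervals. Ribosomal protein transcripts take 1.62% to 2.43% of low-count UMIs and at most 0.605% of deep UMIs, while the nuclear class, carried by Malat1, takes nearly the same share in both.

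To see which genes set low-count barcodes apart, the UMIs of each gene were summed per library and scaled to CPM, the counts of a gene per 1000000 UMIs of that sum. Of 46983 genes, 12594 reached a mean of 5 CPM over the 4 libraries and were counted. That limit sits on low-count barcodes and so favours genes that are high there. Low-count and deep barcodes were therefore compared over the 12602 genes whose low-count and deep means averaged at least 5 CPM. Of these, 24.8%, 24.9%, 22.7% and 24.1% were at least 2-fold above the deep barcodes of sham control, day 1, day 3 and day 7, and 10.8%, 14.3%, 7.17% and 7.32% were at or under 0.5 of the deep level. In all 4 libraries 2564 were 2-fold above and 659 at or under 0.5. Among genes with a mean of at least 50 CPM, picked after their values were seen, the smallest excess over the libraries was highest for Pmch, the precursor of melanin-concentrating hormone made in the hypothalamus, at 14.3-, 12.4-, 12.7- and 20.3-fold. Oxt, which encodes oxytocin, stood 27.6-, 34.6-, 8.03- and 29.9-fold above the deep barcodes. Other neuropeptide messengers were near, with Cck at 8.23- to 12.3-fold and Sst at 7.58- to 12.2-fold. Spp1, which encodes the secreted protein osteopontin, exceeded the deep barcodes by 10.3-, 9.27-, 9.72- and 7.89-fold. Of the genes lowest against the deep barcodes, also picked after their values were seen, Kcnq1ot1, a long noncoding RNA of an imprinted locus, was at 0.251 to 0.354 of its deep level, Ctnna3, an alpha-catenin, at 0.27 to 0.334 and Kirrel3, an adhesion molecule, at 0.323 to 0.399.

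Each injury library was then set against sham control. Ratios are of CPM, with exact conditional binomial 95% intervals, and a gene was called higher or lower past a ratio of 2 or 0.5. Levels are given in the order sham control, day 1, day 3, day 7. A sum of RNA over droplets behaves like a bulk sample, in which fewer cells of a type and less RNA per cell cannot be told apart. The median log2 ratio over all counted genes was -0.02 at day 1, -0.03 at day 3 and -0.01 at day 7. A gene that reaches the limit of 5 CPM only through an injury library had to be higher there, so the counts and medians of gene lists below rest on members of at least 5 CPM in sham control. Of the 12300 genes of that kind, 0.585%, 0.528% and 0.707% were called higher at days 1, 3 and 7, and 0.715%, 0.333% and 0.813% lower. Members under 5 CPM in sham control enter no list count or median, and a ratio given for one of them is a description. Haemoglobins, S100a8 and S100a9 were left out of the ranking and are given once as levels. Hbb-bs, the main adult beta-globin, stood at 4.56, 23.5, 27.6 and 12.3 CPM, and Hba-a1, an alpha-globin, at 0.978, 7.46, 9.07 and 4.66 CPM. S100a8 and S100a9, the calprotectin subunits of neutrophils, stood at 0.978, 7.27, 2.78 and 1.36 CPM and at 1.30, 9.75, 3.71 and 1.02 CPM.

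At day 1 the low-count RNA carried more of the Hsp70 messengers Hspa1a and Hspa1b, of Timp1 and Lcn2 and of mitochondrially encoded RNA, and less endothelial, mural and collagen RNA. There were 142 genes higher than in sham control (1.13% of those counted) and 89 lower (0.707%). Only 72 of the 142 stood at 5 CPM or more in sham control. The others, Hspa1b and Timp1 among them, reached the limit through injury libraries. Of the 142, 24 share most of their 3′ sequence with another gene and 78 overlap another gene, compared with 184 and 7303 of all 12594 counted. The overlapping share is thus near that of all counted genes. No source used here names the strand setting of the counting, so whether overlapping genes were told apart is not known.

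Inducible chaperones were among the highest ratios at day 1, next to Gt(ROSA)26Sor, the noncoding transcript of the Rosa26 locus, at 15.2 (9.93 to 24.2). Hspa1b, 1 of a pair of neighbouring genes for the heat-induced chaperone Hsp70 (GRCm38 chromosome 17, 34956436 to 34959238), stood at 3.37, 52.0, 4.70 and 4.77 CPM. Its day 1 ratio was 15.4 (10.6 to 23.2), and the other libraries stayed under 5 CPM. Hspa1a, the neighbour on the same strand (34969190 to 34972156), stood at 7.28, 76.5, 8.80 and 5.34 CPM with a day 1 ratio of 10.5 (8.10 to 13.8). In deep barcodes their day 1 ratios were 221 (86.0 to 815) and 67.6 (39.3 to 128), from sham sums of only 4 and 13 UMIs. In sham control both were 14.5- and 9.64-fold higher in low-count than in deep barcodes, and at day 1 these excesses were 1.01 and 1.50. Hspa1b was under 5 CPM in sham control. Of the 12 heat shock chaperone genes at or above that level, Hspa1a was called higher and none lower at day 1, with a median log2 ratio of 0.35, and none was called at day 3 or day 7, with medians of -0.23 and -0.32. Hspb1, a small heat shock protein, came next at 22.7, 43.4, 18.9 and 14.0 CPM. The constitutive chaperone Hspa8, which shares sequence, stood at 709, 837, 553 and 507 CPM.

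The stretches before both start sites are shown because the 2 genes moved together and share their upstream sequence (RefSeq, GRCm38.p6, minus strand, 250 bases before the start). Capitals mark GAANNTTC, a spaced inverted repeat found in heat shock elements, here 104 to 97 bases before the start in both.
Hspa1a, chr17:34972157-34972406: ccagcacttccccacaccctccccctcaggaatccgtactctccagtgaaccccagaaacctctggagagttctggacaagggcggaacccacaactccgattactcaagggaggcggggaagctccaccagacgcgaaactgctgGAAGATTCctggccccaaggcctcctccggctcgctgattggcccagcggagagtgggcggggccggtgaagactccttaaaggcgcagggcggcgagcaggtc
Hspa1b, chr17:34959239-34959488: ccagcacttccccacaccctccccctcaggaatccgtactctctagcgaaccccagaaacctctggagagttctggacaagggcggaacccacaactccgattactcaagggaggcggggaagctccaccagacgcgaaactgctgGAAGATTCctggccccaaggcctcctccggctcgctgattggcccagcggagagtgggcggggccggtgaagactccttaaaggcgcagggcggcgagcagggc
The windows differ at 3 of 250 positions, counted from the 5′ end, namely C44T, T47C and T249G from Hspa1a to Hspa1b. The motif reads the same on both strands and stood in 2199 of 32851 windows of this length (6.69%), in 7.73% of the 27025 genes with a window and in 6 of the 10 listed chaperone genes with a window. A match describes the letters of the window and is no evidence of binding.

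Other genes that the ranking named at day 1 were as follows. Timp1, an inhibitor of matrix metalloproteinases, stood at 4.89, 40.0, 31.3 and 4.43 CPM, a day 1 ratio of 8.18 (5.90 to 11.5). Timp1 was under 5 CPM in sham control and lies within Syn1. Lcn2, a secreted iron-siderophore carrier of neutrophils and reactive astrocytes, stood at 6.84, 32.7, 36.5 and 3.29 CPM, 4.78 (3.56 to 6.48) at day 1. Both were high at day 1 and day 3 and at or under the sham level at day 7. In deep barcodes their day 1 ratios were 3.70 (2.44 to 5.76) and 1.46 (0.846 to 2.55). Tnfrsf12a, the receptor for the cytokine TWEAK, stood at 7.28, 30.0, 15.8 and 11.6 CPM, 4.13 (3.08 to 5.58) at day 1. Spp1 reached 3.47 (3.03 to 3.98) at day 1 from 35.2 to 122 CPM. Ms4a6d, a membrane protein of myeloid cells, reached 4.90 (3.00 to 8.27) from 2.50 to 12.2 CPM.

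Of 16 genes on a reactive astrocyte list, 2 were called higher at day 1 and none lower, with a median log2 ratio of 0.16. These were the protease inhibitor Serpina3n at 11.8, 40.7, 39.2 and 24.3 CPM, and the transcription factor Cebpd at 13.3, 44.9, 33.0 and 18.6 CPM. Their day 1 ratios were 3.44 (2.72 to 4.37) and 3.39 (2.71 to 4.26). The metallothioneins Mt1 and Mt2, which bind zinc and copper, lay below the limit at 1.77 (1.71 to 1.82) and 1.98 (1.84 to 2.13). Only 4 of 20 chemokines and cytokines reached 5 CPM, and 3 of the 4 were under 5 CPM in sham control. No count or median is drawn from that list. Ccl2, which draws monocytes, stood at 2.61, 8.99, 6.42 and 2.61 CPM, and Ccl12, a related ligand, at 4.35, 14.5, 9.73 and 9.77 CPM. Ccl4, a ligand made by microglia and macrophages, stood at 1.85, 6.89, 2.58 and 9.32 CPM, with its lowest injury level at day 3.

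Neutrophil transcripts were sparse. Only 4 of the 20 genes on the neutrophil list reached 5 CPM, and 3 of these did so in sham control. Of the 3, Lcn2 was called higher at day 1, 2 lay above sham control, and the median log2 ratio was 0.13. Summed over the list, the level was 52.8 CPM in sham control, with an interval of 48.2 to 57.7. At day 1 it was 102 CPM (interval 93.5 to 111), at day 3 87.1 CPM (82.4 to 91.9), and the day 7 level of 50.9 CPM was back at that of sham control. Lcn2, which reactive astrocytes express too, made up 6.84, 32.7, 36.5 and 3.29 CPM of these sums, which also hold S100a8, S100a9 and Retnlg. Without these 4, left out after their values were seen, the sum of the other 16 genes was 43.7, 44.2, 43.3 and 45.1 CPM. As the 4 left out are members that rose at day 1, this remainder cannot show whether neutrophil RNA changed. In sham control 7 of the 20 had no UMI, at day 1 only 1. Retnlg, a gene of mature neutrophils that lies below the limit of 5 CPM, had 0, 42, 11 and 1 UMIs. This was at least 24.6-fold higher at day 1, taking 3 UMIs per library as the floor. The 42 UMIs stood in 30 barcodes, and 57.1% of them in barcodes with 2 or more.

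Mitochondrially encoded RNA was higher at day 1 as a class. Of the 11 counted genes, 9 were called higher and none lower, with a median log2 ratio of 1.35. The 16S ribosomal RNA mt-Rnr2 stood at 2701, 8345, 4736 and 5276 CPM, 3.09 (3.04 to 3.14) at day 1. With each gene counted at most once per barcode that ratio was 1.60, short of a call. The messenger mt-Cytb, a subunit of respiratory complex III, stood at 1045, 2923, 1730 and 1991 CPM, and mt-Nd4 of complex I at 628, 1712, 1088 and 1143 CPM. The genes not called were mt-Nd6, at 1.60 (1.25 to 2.04), and mt-Nd3, at 0.934 (0.833 to 1.04). At day 3 none of the 11 was called higher, with a median of 0.73, and at day 7 2 were, with a median of 0.93. In deep barcodes the medians were 0.72, 1.32 and 0.74, so the day with the most mitochondrial RNA was day 1 in low-count and day 3 in deep barcodes.

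Vessel RNA was lower at day 1. Of 20 endothelial and mural genes, 9 were called lower and none higher, all 20 lay under their sham level, and the median log2 ratio was -0.98. Rgs5, a pericyte signalling regulator, stood at 54.4, 18.9, 54.0 and 26.5 CPM, 0.348 (0.278 to 0.432) at day 1. Cldn5, the tight-junction protein of brain endothelium, stood at 66.3, 29.1, 81.7 and 24.2 CPM, 0.439 (0.365 to 0.525). Flt1, a receptor for vascular growth factors, stood at 44.7, 17.6, 42.9 and 19.5 CPM. All 3 were low at day 1, near or above sham at day 3 and low again at day 7. The transporters Slco1a4 and Slc22a8 of the blood-brain barrier had day 1 ratios of 0.314 (0.232 to 0.42) and 0.193 (0.0803 to 0.401). Itm2a, a membrane protein of endothelium, had 0.362 (0.292 to 0.446), and Ptprb, an endothelial phosphatase, 0.281 (0.193 to 0.398). Deep barcodes had a list median of -1.15 at day 1, 0.80 at day 3 and -0.02 at day 7.

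Fibrillar collagens followed the same course at day 1. Col1a1 stood at 21.5, 4.59, 38.4 and 18.1 CPM, 0.213 (0.134 to 0.327) at day 1. Col1a2, the second chain of type I collagen, had 0.325 (0.227 to 0.455) and Col3a1, of type III collagen, 0.275 (0.178 to 0.412). Of 15 matrix and fibroblast genes, 5 were called lower and none higher at day 1, with a median log2 ratio of -0.16. In deep barcodes the day 1 ratios of Col1a1, Col1a2 and Col3a1 were 0.516 (0.276 to 0.927), 0.659 (0.413 to 1.03) and 1.05 (0.577 to 1.89).

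**Figure D3:**
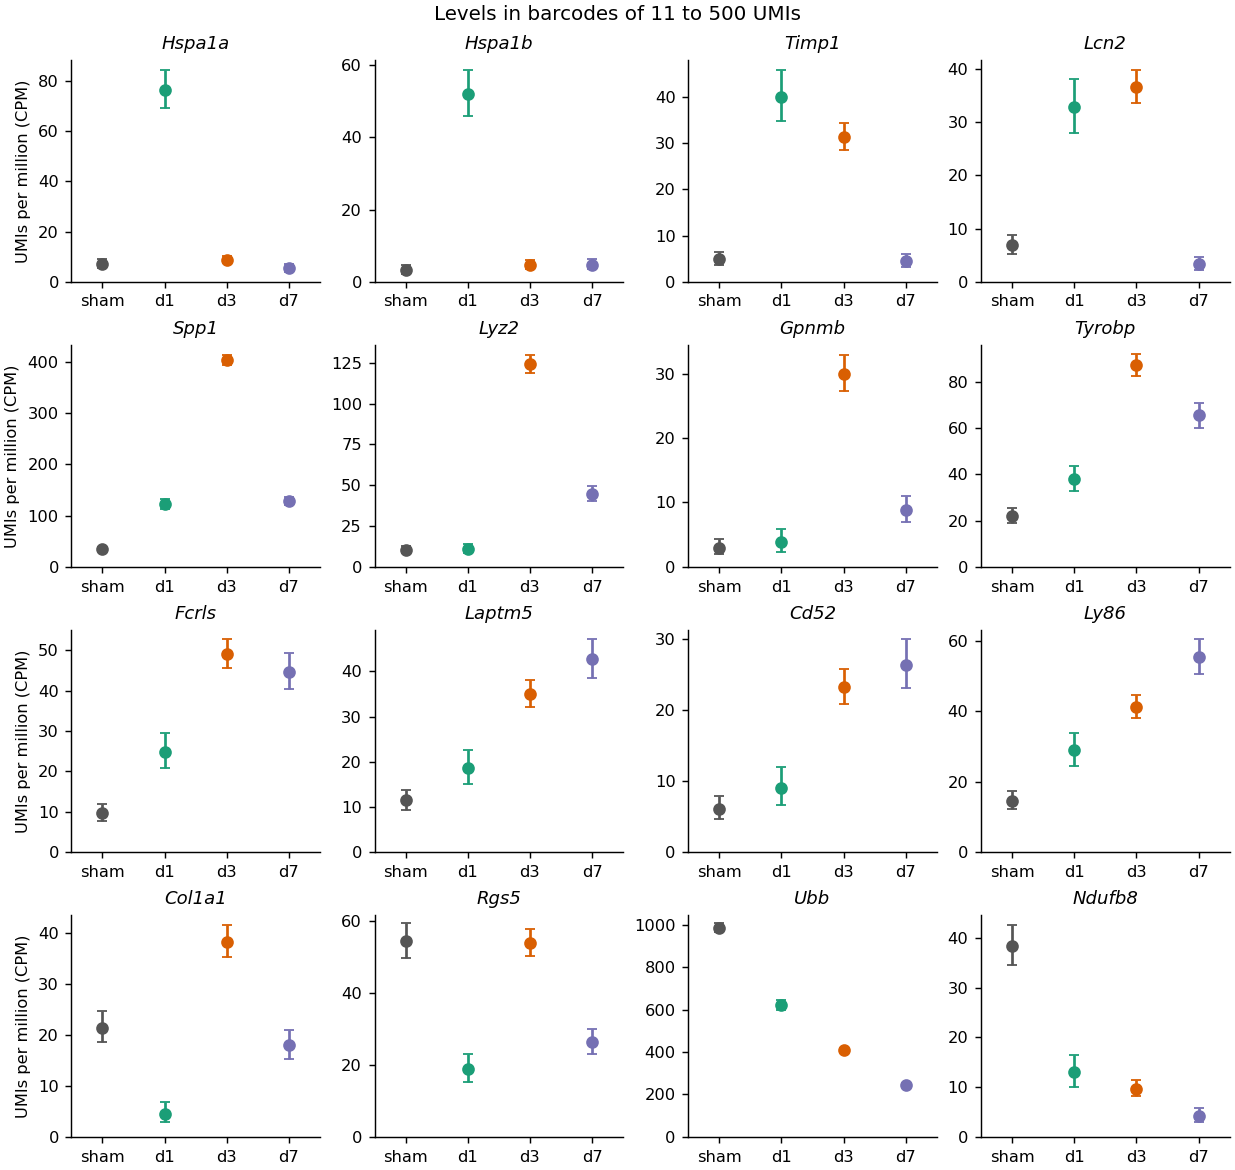
Level (CPM, axes from 0, a scale per panel) of 16 genes in low-count barcodes of sham control and the libraries labelled day 1, 3 and 7, each a single library, with exact Poisson 95% intervals. Hspa1a and Hspa1b are high at day 1 alone (76.5 and 52.0 CPM), Spp1 and Lyz2 peak at day 3 (404 and 124 CPM), and Ubb and Ndufb8 are lower in each later library.

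At day 3 the low-count RNA carried more Lyz2, Spp1 and Gpnmb. Mitochondrially encoded genes and genes of the reactive myeloid, complement, homeostatic microglia, interferon, reactive astrocyte and matrix lists stood mostly above sham control. There were 131 genes higher than in sham control (1.04% of those counted) and 42 lower (0.333%). Only 65 of the 131 stood at 5 CPM or more in sham control. The others, Gpnmb among them, reached the limit through injury libraries. Of the 131, 6 share most of their 3′ sequence with another gene, and 7 carry only a clone or number symbol, against 39 of the 142 at day 1.

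Lyz2, lysozyme of macrophages and monocytes (chromosome 10, 117277331 to 117282321), stood at 10.5, 10.9, 124 and 44.8 CPM. Its ratio was 11.8 (9.60 to 14.6) at day 3, and day 1 did not differ from sham control beyond counting error, at 1.03 (0.732 to 1.45). Spp1 (chromosome 5, 104435118 to 104441050) stood at 35.2, 122, 404 and 129 CPM, 11.5 (10.3 to 12.9) at day 3. Gpnmb, a glycoprotein of lipid-laden phagocytes that was under 5 CPM in sham control, stood at 2.93, 3.83, 30.0 and 8.86 CPM, 10.2 (6.93 to 15.7). These 3 genes had deep ratios of 12.6 (7.72 to 21.9), 12.1 (9.31 to 16.0) and 8.60 (5.38 to 14.6), so the ratios were of like size in low-count and deep barcodes. Their low-count levels were nevertheless 9.99-, 9.72- and 3.16-fold above the deep ones at day 3.

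Of the 20 genes on the monocyte and macrophage list 6 reached 5 CPM, and 3 of these were under 5 CPM in sham control, so that they passed through the injury libraries. The 3 that stood above 5 CPM in sham control, Lyz2, Lgals3 and Fn1, were past 2 at day 3. Thbs1, a matrix glycoprotein released by monocytes and platelets, stood at 1.52, 3.44, 12.6 and 2.61 CPM, 8.31 (4.83 to 15.5). Lgals3, a lectin of activated phagocytes, stood at 6.95, 14.2, 27.1 and 9.20 CPM, 3.90 (2.99 to 5.16). Adgre1, which encodes the macrophage antigen F4/80, stood at 3.59, 2.30, 12.9 and 8.07 CPM. Fn1, fibronectin, which macrophages and vessels both make, stood at 41.1, 18.6, 93.1 and 40.4 CPM. It was the member that day 1 called lower, at 0.452 (0.358 to 0.566), and its day 3 ratio was 2.27 (2.02 to 2.55).

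Of 20 reactive myeloid genes, 8 were called higher and none lower at day 3, with a median log2 ratio of 0.69. Plin2, which coats lipid droplets, stood at 5.87, 8.22, 30.98 and 6.93 CPM, 5.28 (3.98 to 7.14). Cd68, a lysosomal marker of phagocytes, stood at 8.37, 13.2, 38.5 and 20.8 CPM, 4.60 (3.62 to 5.91). Tyrobp, the signalling adaptor of microglial receptors, stood at 22.1, 37.9, 87.5 and 65.5 CPM, 3.97 (3.42 to 4.62). The lysosomal protease Ctsd was abundant, at 175, 192, 438 and 367 CPM, 2.50 (2.37 to 2.64). Trem2, the lipid-sensing receptor that pairs with Tyrobp, stood at 13.04, 15.3, 42.2 and 40.1 CPM. The 2 most abundant members stayed below the limit, Apoe at 1.27-fold and Fth1, the ferritin heavy chain, at 1.31-fold.

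Other genes named by the ranking were Ms4a6c at 7.43 (4.39 to 13.6), the scavenger receptor Stab1 at 5.72 (3.81 to 8.93), and the pore-forming protein Mpeg1 at 4.64 (3.32 to 6.66). Fcrls, an Fc receptor-like gene of microglia, stood at 9.67, 24.9, 49.1 and 44.6 CPM, 5.07 (4.07 to 6.39) at day 3. Of 6 complement genes, 4 were called higher at day 3, with a median log2 ratio of 1.41. C1qa, C1qb and C1qc, the chains of C1q that start the classical pathway, had ratios of 2.82 (2.56 to 3.10), 2.63 (2.41 to 2.86) and 3.04 (2.71 to 3.42). C1qb was the most abundant, at 71.2, 125, 187 and 169 CPM. The other called member was C4b, at 2.68-fold. The receptor C3ar1, under 5 CPM in sham control, was at 2.96-fold.

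Summed over the proliferation list, the level was 762, 1029, 893 and 870 CPM. Top2a, the topoisomerase of replicating cells, stood at 2.82, 2.87, 15.5 and 5.79 CPM, 5.48 (3.65 to 8.57). Mki67, a nuclear protein of cycling cells, stood at 4.78, 3.44, 17.5 and 4.66 CPM, 3.66 (2.65 to 5.15). Both were under 5 CPM in sham control. Of the 8 proliferation genes at or above that level none was called at day 1 or day 3, and 1 was called higher at day 7. Above sham control lay 8, 6 and 7 of the 8 at days 1, 3 and 7. The list median was 0.52 at day 1, 0.25 at day 3 and 0.35 at day 7.

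Reactive astrocyte and matrix genes stood above sham control at day 3. Of 16 astrocyte genes, 7 were called higher and all 16 lay above sham control, with a median log2 ratio of 0.83. Gfap, the intermediate filament of reactive astrocytes, stood at 60.2, 82.4, 184 and 128 CPM, 3.07 (2.80 to 3.36). Vim, vimentin, stood at 118, 125, 288 and 123 CPM, 2.45 (2.29 to 2.62). Lgals1, a lectin, stood at 35.1, 28.9, 81.4 and 32.8 CPM. Vim and Lgals1 were thus back near sham control at day 7, while Gfap was not. All 15 matrix and fibroblast genes lay above sham control at day 3, 2 were called, and the median log2 ratio was 0.78. Tnc, tenascin C, which is under 5 CPM in sham control, stood at 4.13, 3.83, 14.5 and 4.09 CPM, 3.51 (2.48 to 5.10), and Col4a1, of the basement membrane, at 26.2, 30.0, 56.1 and 26.02 CPM. Hmox1, which breaks down haem, stood at 8.37, 12.8, 27.9 and 4.88 CPM, 3.33 (2.61 to 4.30), and was the only 1 of 11 counted iron and haem genes called higher. Endothelial and mural genes had a median of 0.00 at day 3, and the 1 called was Vwf, a platelet-binding protein of endothelium, at 10.9, 7.08, 24.0 and 6.59 CPM.

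Among the 42 genes lower at day 3, 11 share most of their 3′ sequence with another gene (26.2%, against 1.46% of the genes counted). The lowest, mt-Nd3, a complex I subunit, had 890, 472, 0 and 702 UMIs, at least 487-fold lower at day 3 with 3 UMIs as the floor. A copy of it named Gm28438 on chromosome 1 (24612775 to 24613119, minus strand) had 0, 1, 1119 and 0 UMIs. The sum of both was 96.7, 90.5, 74.1 and 79.7 CPM, so what changed in the library labelled day 3 was mainly which of the 2 genes was credited. The first 120 bases of the 348 of mt-Nd3 are shown because so few bases tell the genes apart.
mt-Nd3, chrM:9459-9578, plus strand, GRCm38: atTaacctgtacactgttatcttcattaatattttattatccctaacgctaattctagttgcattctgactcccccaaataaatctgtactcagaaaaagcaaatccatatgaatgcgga
The capital marks the base that differs, T3C from mt-Nd3 to the copy, counted from the 5′ end. The other 344 of the copy's 345 bases are identical, and the copy lacks the last 3 bases of mt-Nd3.

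Of the other genes named as lower at day 3, several were lower still at day 7. Ubb, a polyubiquitin gene, stood at 985, 621, 409 and 244 CPM, 0.415 (0.401 to 0.428) at day 3. Ppia, the cyclophilin A gene, stood at 329, 141, 114 and 44.9 CPM, 0.346 (0.326 to 0.367). Both share sequence with other genes and are uncertain. Ndufb8 and Ndufs5, nuclear-encoded complex I subunits that passed the sequence check, stood at 38.4, 13.01, 9.66 and 4.20 CPM and at 127, 56.6, 49.3 and 28.1 CPM. Sec61g, a subunit of the protein translocation channel, stood at 46.7, 21.0, 19.7 and 21.1 CPM. Gstp1, a glutathione transferase that shares sequence, stood at 48.7, 16.1, 11.3 and 6.59 CPM. Il31ra, a cytokine receptor gene that overlaps Gm3226, stood at 144, 66.2, 40.1 and 28.2 CPM, and whether reads of the 2 were told apart is not known. Gh, growth hormone of the pituitary, was at 0.178 (0.0647 to 0.425) at day 3, from 2.61 to 0.463 CPM. Gh was under 5 CPM in sham control and passed the limit through day 7, at 29.0 CPM. Rpl15, a ribosomal protein gene that shares sequence, was at 0.42-fold.

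At day 7 mitochondrially encoded genes and genes of the complement, homeostatic microglia, reactive myeloid and interferon lists stood mostly above sham control. Endothelial and mural genes, translation factors and several named genes such as Ubb and Ndufb8 stood below sham control. There were 156 genes higher than in sham control (1.24% of those counted), and 0.802% were lower. Only 87 of the 156 stood at 5 CPM or more in sham control, and the others reached the limit through injury libraries.

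Homeostatic microglia genes were at their highest at day 7. Of 11 counted, 7 were called higher, all 11 lay above sham control, and the median log2 ratio was 1.08, against 0.70 at day 3 and -0.06 at day 1. Csf1r, the receptor that microglia need to survive, stood at 21.4, 20.5, 44.7 and 51.6 CPM, 2.41 (2.03 to 2.86) at day 7. Cx3cr1, the fractalkine receptor, stood at 18.7, 23.5, 30.5 and 39.8 CPM, 2.13 (1.77 to 2.57). In deep barcodes the day 7 ratio of Cx3cr1 was 1.05 (0.91 to 1.20), and the list medians were -0.06, 0.38 and 0.35. P2ry12, a purine receptor, stood at 21.6, 14.3, 28.4 and 39.0 CPM, below the limit at 1.80-fold at day 7.

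The ranking at day 7 also named genes of leukocytes and microglia. Ly86, which pairs with a toll-like receptor homologue, stood at 14.6, 28.9, 41.4 and 55.6 CPM, 3.82 (3.15 to 4.65). Laptm5, a lysosomal membrane protein of blood-derived cells, stood at 11.4, 18.6, 35.0 and 42.7 CPM, 3.74 (3.01 to 4.69). Cd52, a small surface glycoprotein of leukocytes, stood at 6.08, 8.99, 23.2 and 26.4 CPM, 4.33 (3.22 to 5.91). For these 3 genes day 7 was at or above day 3, whereas Lyz2, Spp1 and Gpnmb were back at 4.25 (3.39 to 5.36), 3.65 (3.23 to 4.15) and 3.02 (1.93 to 4.87). Fcrls and Mpeg1 stayed near their day 3 levels, at 4.62 (3.66 to 5.88) and 4.29 (3.01 to 6.25). Ccl4 reached 5.04 (2.97 to 9.07), and in deep barcodes 18.0 (5.76 to 90.4), from 3 UMIs in sham control. Of the complement genes 4 of 6 were called, with C1qa at 3.02 (2.74 to 3.34) and C1qc at 3.06 (2.704 to 3.46).

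Interferon and class I genes had their highest median at day 7. At day 1, 1 of 12 was called lower and none higher (median log2 ratio -0.17), at day 3 1 was called higher (0.58), and at day 7 3 were called higher and none lower (0.67). Ifi27l2a, an interferon-induced gene, stood at 5.76, 4.78, 14.8 and 21.6 CPM, 3.75 (2.75 to 5.18) at day 7. Bst2, tetherin, stood at 12.2, 13.4, 23.0 and 25.6 CPM, 2.10 (1.67 to 2.66). Ifit3 stood at 6.63, 3.06, 7.48 and 14.5 CPM, 2.19 (1.61 to 3.03) at day 7 and 0.462 (0.248 to 0.811) at day 1. Class II genes, which present antigen, had 5 of 7 members counted, 3 of which were under 5 CPM in sham control, so no count is drawn from them. Cd74, the invariant chain, stood at 7.71, 13.2, 17.9 and 16.7 CPM. Its ratios were 1.71 (1.21 to 2.42), 2.32 (1.78 to 3.05) and 2.16 (1.62 to 2.92), while in deep barcodes they were 29.2 (13.8 to 73.7), 4.48 (2.00 to 11.8) and 11.02 (5.05 to 28.5) from 7 UMIs in sham control. The ratios of Cd74 were thus furthest apart between low-count and deep barcodes at day 1.

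Among the genes lower at day 7, 20 share most of their 3′ sequence with another gene (19.8%). Ndufb8 had the lowest ratio among the named genes of its own sequence, 0.110 (0.0759 to 0.154), and 0.140 (0.0678 to 0.263) in deep barcodes. Ndufs5 was at 0.220 (0.191 to 0.253), and Btf3, a factor that guides nascent chains, at 0.219 (0.182 to 0.263) from 75.6 to 16.6 CPM. Gps1, a subunit of the COP9 signalosome, was at 0.139 (0.0828 to 0.223). Mir6236, a short annotated microRNA locus, stood at 3771, 2707, 1890 and 813 CPM, 0.216 (0.210 to 0.221). Ftl1, the ferritin light chain, stood at 49.3, 24.1, 32.6 and 5.68 CPM, 0.115 (0.0842 to 0.154), and shares sequence with other genes. Ubb, Ppia and Gstp1 were at 0.248 (0.236 to 0.260), 0.136 (0.123 to 0.152) and 0.135 (0.101 to 0.178), with the same limit.

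Cytosolic ribosomal protein genes had medians of 0.26, 0.09 and -0.27, with 69, 53 and 11 of 76 above sham control, and 3 were called higher at day 1 and 1 and 6 lower at day 3 and day 7. In deep barcodes their medians were 0.63, 1.07 and 0.34. Translation factors had a median of -0.42 at day 7 against 0.12 in deep barcodes. All 14 lay under sham control in low-count barcodes at day 7, and 1, Eef1a1, which shares sequence, was called lower at 0.418-fold. Of 16 glycolytic and hypoxia genes none was called higher at any day. Adm, a vasodilator peptide, and Hk2, hexokinase 2, both under 5 CPM in sham control, were at 3.17 (1.90 to 5.39) and 2.50 (1.34 to 4.76) at day 1, and Hk2 at 4.90 (2.96 to 8.51) at day 7. At day 7 3 of the 16 were called lower, namely Gapdh at 0.49-fold, Eno1 at 0.395-fold and Pgk1 at 0.356-fold. Gapdh shares sequence with other genes and is uncertain. Eno1b, a retrotransposed copy of Eno1, went the other way, at 4.24, 14.0, 7.28 and 10.9 CPM, and the sum of Eno1 and Eno1b was at 0.452 of its sham level at day 7. Immediate early genes, which neurons switch on with activity, had medians of 0.14, -0.34 and -0.77. At day 7 12 of 14 lay under sham control, and Fos was called lower, at 13.5, 18.6, 9.003 and 5.57 CPM. Endothelial and mural genes had 7 of 20 called lower at day 7, all 20 under sham control and a median of -0.72, against -0.02 in deep barcodes.

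Lists of neurons, myelin and resting astrocytes held 1 call between them. None of 29 neuronal cytoplasm and synapse genes was called at any day (medians 0.06, -0.17 and -0.20). The 15 striatal neuron genes had no call either, but 14, 13 and 14 of them lay under sham control at days 1, 3 and 7 (medians -0.59, -0.34 and -0.46). Ppp1r1b, the dopamine-regulated phosphatase inhibitor of striatal neurons, stood at 180, 120, 136 and 119 CPM. Choroid plexus genes lay low too (medians -0.34, -0.47 and -0.45). Of the 12, Tmem72 was called lower at day 1 and day 3, at 9.78, 2.49, 3.71 and 6.70 CPM, and Ttr, transthyretin, their most abundant member, stood at 4651, 3594, 3362 and 2761 CPM. Of 18 myelin genes 1 was called, Apod, an apolipoprotein of oligodendrocytes and vessel-associated cells, at 459, 1085, 518 and 490 CPM, 2.36 (2.27 to 2.46) at day 1. Resting astrocyte genes had no call (medians -0.18, 0.16 and 0.04), and nuclear long noncoding RNAs none of 10.

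**Figure D4:**
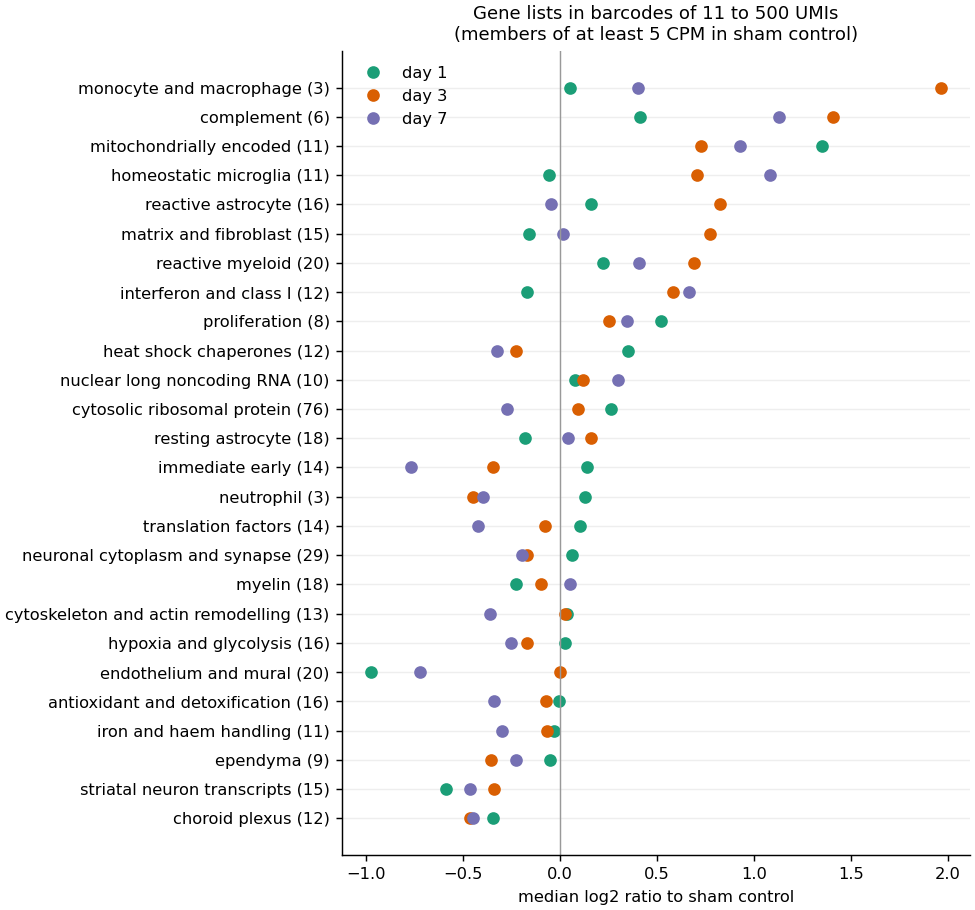
Median log2 ratio to sham control in low-count barcodes for 26 gene lists at day 1, day 3 and day 7, over members of at least 5 CPM in sham control (number in brackets, 3 or more per list), and a line at 0, the level of sham control. Mitochondrially encoded genes reach 1.35 at day 1, and endothelial and mural genes lie at -0.98 at day 1 and -0.72 at day 7. The monocyte and macrophage median of 1.96 at day 3 rests on 3 genes.

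The last question was whether genes that changed in low-count barcodes changed in deep barcodes of the same libraries. Of the 12300 genes of at least 5 CPM in low-count barcodes of sham control, deep barcodes called 81 higher (0.659%) and 83 lower (0.675%) at day 1, 200 (1.63%) and 11 (0.0894%) at day 3, and 77 (0.626%) and 59 (0.48%) at day 7. At day 1, 38 genes were higher in both, which is 52.8% of the low-count and 46.9% of the deep calls. At day 3 it was 48 genes (73.8% and 24%) and at day 7 43 (49.4% and 55.8%). Of genes lower, 34 (38.6% and 41%), 8 (19.5% and 72.7%) and 27 (27% and 45.8%) were past 0.5 in both at days 1, 3 and 7. The limit applied to low-count barcodes, and none was set on the deep level.

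**Figure D5:**
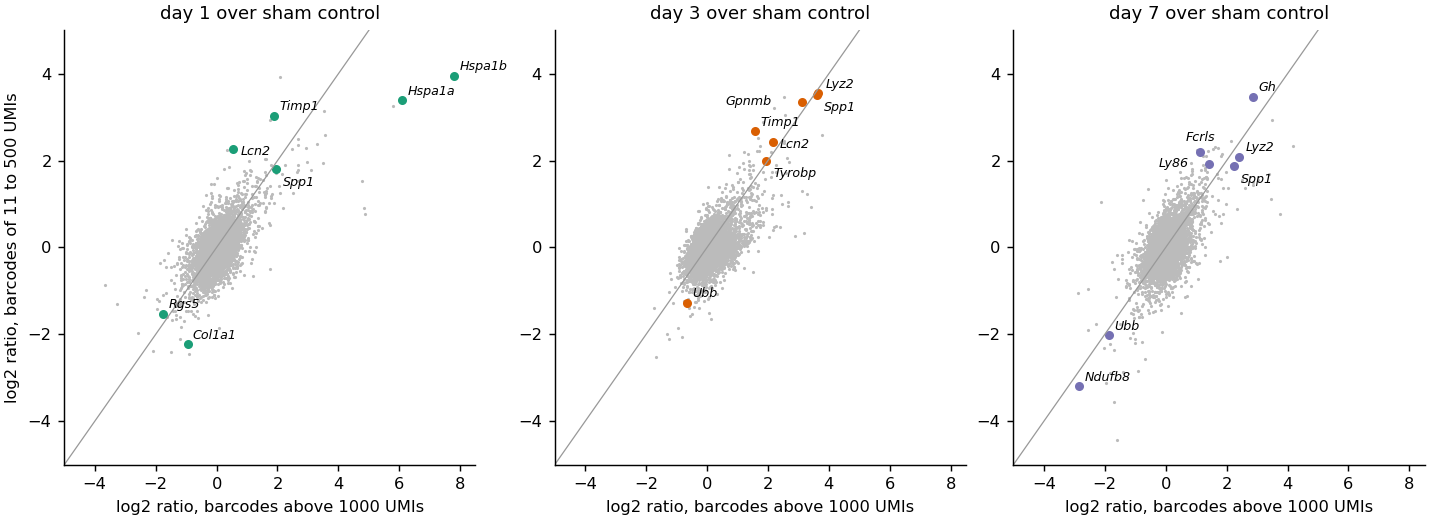
Log2 ratio to sham control in barcodes above 1000 UMIs (horizontal) and in barcodes of 11 to 500 UMIs (vertical) for the counted genes, with a panel per day, named genes in colour and the line of equal ratio. Hspa1a and Hspa1b lie far right of the line at day 1, Lyz2 and Spp1 lie on it at day 3, and 3 genes at day 3, mt-Nd3 among them, fall outside the axes.

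How a gene's UMIs were spread over barcodes was compared with genes of like total. The 6097 Spp1 UMIs of day 3 stood in 5466 barcodes, 1.12 per barcode that held any, and 19.9% of them in barcodes with 2 or more, against a median of 19.0% for genes of like total. The 1874 Lyz2 UMIs of day 3 stood in 1773 barcodes, 1.06 per barcode. For Hspa1a at day 1, 400 UMIs stood in 382 barcodes, with 8.75% in barcodes of 2 or more against 12.9% for genes of like total. None of these 3 was therefore gathered in a few barcodes. Levels also held across the range, with Spp1 at day 3 at 462 CPM in barcodes of over 100 and up to 300 UMIs and 395 CPM in those above 300. Retnlg differed, with 57.1% of its day 1 UMIs in barcodes of 2 or more against 8.33% for genes of like total.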

How the data were processed

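The authors prepared 3′ libraries (10x Chromium v3.1) from nuclei of 4 groups, mapped reads to GRCm38 with STARsolo (STAR 2.7.3a), counted exonic and intronic reads against GENCODE vM8, and collapsed and filtered UMIs. Libraries were pooled for sequencing. The deposited values are raw UMI counts per gene and barcode, with no filter on barcodes and no removal of ambient RNA. Per the labels each group is 1 library.

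Barcodes of 11 to 500 UMIs were summed per library, expressed as CPM of that sum and compared with sham control. Library totals (sham control, then days 1, 3 and 7) were 28195551, 23285489, 42963698 and 25033355 UMIs. Counted genes had a mean of at least 5 CPM over the 4 libraries. Sums under 3 UMIs were set to 3, and pairs with neither sum above 3 got no ratio. Levels carry exact Poisson, ratios exact conditional binomial and shares Clopper-Pearson 95% intervals. With 1 library per group there was no test and no p-value. The genes named per comparison were the 15 with the highest lower bound and the 10 with the lowest upper bound, leaving out clone and number symbols, haemoglobins, S100a8 and S100a9, plus the most abundant and most changed members of 29 lists (431 of 556 genes counted). The members and lists were chosen with earlier results of these data known. List counts, medians and overlaps with deep barcodes rest on genes of at least 5 CPM in sham control, and low-count and deep barcodes were compared over genes whose means in both averaged at least 5 CPM, rules chosen after the data were seen. No doublet caller was run, so deep barcodes may hold doublets.

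Positions came from GENCODE vM21 (46488 of 46983 identifiers matched). A gene shares sequence where at least 50% of the 60-base words in the last 500 bases of its transcripts occur in another gene. Ratios were tested on simulated data for the real genes. Alternatives were other UMI ranges, scalings, filters, thinning, counting a gene once per barcode, and leaving out shared barcodes or genes sharing sequence. Python 3.11.15, numpy 2.4.6, scipy 1.17.1, pandas 2.3.3, and edgeR 4.0.16 (R 4.3.3, for TMM factors only) were used.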

Additional observations from a re-analysis of the deposited data

Results flagged for a closer look

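Several genes were called in opposite directions at different days, each in a single library per day, and the difference between days was not tested. Lcn2 was at 4.78 times its sham level at day 1, 5.34 at day 3 and 0.481 at day 7. Fn1 was at 0.452 at day 1 and 2.27 at day 3. Ifit3 was at 0.462 at day 1 and 2.19 at day 7. Gh, growth hormone of the pituitary, was at 2.05 at day 1, 0.178 at day 3 and 11.1 at day 7, from 24 UMIs in sham control and 28, 7 and 255 in the injury libraries. Gt(ROSA)26Sor, the transcript of the Rosa26 locus (GRCm38 chromosome 6, 113067428 to 113077333, minus strand), was at 15.2 at day 1, 11.02 at day 3 and 0.261 at day 7. It overlaps Thumpd3, which stood at 19.8, 19.1, 24.2 and 18.4 CPM, and in deep barcodes the Gt(ROSA)26Sor ratios were 4.19 (2.72 to 6.65), 5.73 (3.86 to 8.82) and 0.919 (0.496 to 1.68).

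Barcodes of over 500 and up to 1000 UMIs, which lie outside the low-count range, numbered 4137 at day 1, 4149 at day 3 and 791 at day 7, against 269 in sham control. Mitochondrially encoded transcripts took 6.37%, 3.09%, 4.69% and 6.09% of their UMIs (sham control, then days 1, 3 and 7), against 0.741% to 2.11% in low-count barcodes.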

How the results depend on the processing

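Counts of called genes, in the order higher and lower at day 1, day 3 and day 7, became 226, 37, 352, 153, 249 and 199 in barcodes of 11 to 100 UMIs, 275, 264, 228, 220, 311 and 210 in barcodes of 1 to 10 UMIs, 574, 397, 482, 200, 557 and 281 with a mean of at least 1 CPM, and 41, 25, 31, 14, 41 and 46 with at least 20 CPM. With every library thinned to the smallest, 69 genes were lower at day 3. In barcodes of over 100 and up to 300 UMIs, a range chosen after seeing the data, 732 and 449 genes were higher and lower at day 1, 206 and 194 at day 3, and 184 lower at day 7. These ranges and filters hold fewer UMIs or other genes, and no other cause was tested. Day 1 held only 285757 UMIs in the range of over 100 and up to 300. There the floor of 3 UMIs alone can carry a gene of low level past a ratio of 2. With genes of at least 5 CPM in sham control alone, also chosen after seeing the data, 72, 65 and 87 genes were higher at days 1, 3 and 7. The remaining 63 counts stayed within 1.5 times. Of the list medians 97 left their counting interval and 1263 stayed, with 47 of the 97 in barcodes of 11 to 100 UMIs and 18 in those of 1 to 10. In barcodes of 11 to 100 UMIs the endothelial and mural median at day 1 turned to 0.07, the striatal one to 0.06, and the proliferation median at day 3 to -0.13. The median of all genes with a ratio in that range was 0.54 at day 1 and -0.13 at day 3. Both day 1 list medians thus still lay below that of all genes. Of the class shares 46 moved and 54 stayed, all 20 with 11 to 100 UMIs, 15 with 1 to 10 and 11 with 11 to 1000. Of 75 named ratios, 74 stayed past 2-fold the same way when a gene was counted once per barcode (mt-Rnr2 at day 1 was 1.60), 67 of 74 in barcodes of 1 to 10 UMIs, 6 of 11 in 11 to 100 and 72 of 75 in those of over 100 and up to 300. Rpl15 at day 3 turned to 1.22 in barcodes of 11 to 100 UMIs, which held only 32412 UMIs in sham control and 26614 at day 3. Slc22a8 at day 1 turned to 1.16 in barcodes of over 100 and up to 300 UMIs, which held 285757 UMIs at day 1. Both ratios rest on few UMIs, and the floor of 3 UMIs can set that of Slc22a8. Neither shows a change of direction. No paired analysis was possible because each group holds 1 library, and no library could be left out. Scaling by TMM or size factors moved the median of all genes by at most 0.055 (log2).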

Other observations

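Messengers of hypothalamic and pituitary peptides, picked after their values were seen, varied between libraries and did not move together. Pmch stood at 20.0, 95.6, 28.1 and 69.2 CPM in sham control, day 1, day 3 and day 7, a ratio of 4.78 (4.03 to 5.70) at day 1 and 3.46 (2.93 to 4.10) at day 7. Hcrt, the orexin precursor, stood at 13.7, 46.1, 28.7 and 30.2 CPM. Oxt stood at 72.1, 82.1, 85.7 and 51.0 CPM, and Avp, vasopressin, at 164, 105, 86.0 and 44.0 CPM. Gh and Prl, hormones of the anterior pituitary, were highest at day 7, at 29.0 and 3.64 CPM, against 2.61 and 0.326 CPM in sham control.

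Other genes that the ranking named belonged to no list. Adam2, best known from sperm, stood at 10.1, 61.0, 18.0 and 48.3 CPM, 6.04 (4.78 to 7.69) at day 1 and 4.78 (3.81 to 6.05) at day 7. Btk, a kinase of B cells and myeloid cells, stood at 4.78, 19.5, 8.21 and 22.4 CPM. Plek2, a pleckstrin family member, stood at 6.84, 18.4, 7.75 and 34.2 CPM. Dnase1l3, a secreted nuclease, stood at 1.30, 11.5, 2.71 and 7.16 CPM. All 4 were higher at day 1 and day 7 than at day 3. Rn7sk, a small nuclear RNA with sequence copies, was at 9.56 (5.36 to 18.3) at day 1 in low-count and 55.5 (31.5 to 108) in deep barcodes. Prg4, lubricin, which overlaps Tpr, was at 3.99 (3.10 to 5.16) at day 1.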
